A study of Mus musculus with 19 samples.

Results

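The BAF complex is an ATP-driven chromatin remodeller that is built with a choice of related subunits at many of its positions. Here 10 subunit genes that differ between its stem cell, progenitor and neuron forms were followed: the ATPase genes Smarca2 and Smarca4, the scaffold genes Smarcc2 and Smarcc1, the actin-related genes Actl6b and Actl6a, and the PHD finger genes Phf10, Dpf2, Dpf1 and Dpf3. They were chosen by name, and all 10 were found among the 24016 genes of the RNA table. Of these, 9 passed the filter on low values, an FPKM of 1 or more in any library, and were tested. Actl6b stayed below it, and Dpf3 passed it through NeuP replicate 2 alone.

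In mice the complex of embryonic stem cells carries the ATPase BRG1 (Smarca4) with the scaffold BAF155 (Smarcc1), and has little BRM (Smarca2) or BAF170 (Smarcc2). BRM and BAF170 join in neural progenitors. When progenitors leave the cell cycle, the progenitor subunits encoded by Actl6a and Phf10 give way to the neuron subunits encoded by Actl6b, Dpf1 and Dpf3. Polycomb repressive complex 1 (PRC1), of which Ring1B and Cbx7 are subunits, opposes BAF at many silent developmental genes.

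RNA was sequenced from neural progenitors (NeuP, 2 replicates), from ESC carrying a lentiviral hairpin against Nup153 (hairpin #2 and hairpin #4, 1 library each, together called the knockdown) and from ESC carrying a scrambled, non-target hairpin (the control, 1 library). Nup153 is a nucleoporin of the nuclear basket. Its own RNA was at 20.9 and 17.4 FPKM in the hairpins, against 39.4 FPKM in the control. The ESC were of the E14 line, grown with LIF on irradiated fibroblast feeders and selected in puromycin for at least 4 days. NeuP had no hairpin according to the labels, came through embryoid bodies and Noggin, and were grown in N2 medium with FGF2 and EGF. The labels name no line for NeuP, so line, virus and selection cannot be told apart from cell state in any comparison of NeuP with ESC. Peaks came from 9 lists: Ring1B ChIP in NeuP, hairpin #2, hairpin #4 and control cells, Cbx7 ChIP in control ESC, Oct4 ChIP in hairpin #2 and control ESC, and DamID of Nup153 and of Oct4 in ESC. DamID marks DNA that a methylase-tagged protein has been near.

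The RNA libraries held between 24.3 and 32.2 M fragments each. The cell labels were checked against marker genes. Over all 13750 tested genes 18.3% were called higher in NeuP than in the control and 24.9% lower. Of 15 pluripotency markers, 14 were called lower in NeuP. Sox2 was not called, at 110 and 84.2 FPKM in NeuP. The summed level of the 15 was 120 and 92.8 FPKM in NeuP, most of it Sox2. It was 1821 and 2013 FPKM in the hairpins and 1830 FPKM in the control. Of 15 neural progenitor markers, 10 were called higher in NeuP, with Fabp7 at 2454 and 3143 FPKM. Of 13 neuron markers tested, 3 were called higher and 2 lower (Stmn2 and Nefl). All 15 summed to 308 and 179 FPKM in NeuP, 101 and 105 FPKM in the hairpins and 98.8 FPKM in the control. Stmn2 made up most of the ESC sums, at 55.7 and 63.6 FPKM in the hairpins and 67.6 FPKM in the control. In NeuP it was at 0.377 and 0.565 FPKM. The 15 also included Rbfox3 at 0.823 and 0.103 FPKM and Neurod2 at 0.119 and 0.0530 FPKM in NeuP, while Map2 stood at 224 and 118 FPKM, most of the NeuP sums. The 12 glia markers summed to 651 and 389 FPKM in NeuP, 24.1 and 27.2 FPKM in the hairpins and 25.2 FPKM in the control. The myelin genes Mog and Mag were at 0 in both NeuP replicates. Of 9 glia markers tested, 4 were called higher in NeuP and 2 lower (Aldh1l1 and Mbp). Slc1a3 alone stood at 273 and 321 FPKM in the NeuP replicates. These replicates differed from each other in the astrocyte gene Gfap, at 172.8 and 0.563 FPKM, and in Hells, a helicase gene of dividing cells, at 0.945 and 26.6 FPKM. The 13 fibroblast markers summed to 98.9 and 156 FPKM in NeuP, 149 and 151 FPKM in the hairpins and 141 FPKM in the control. Of 12 tested, 6 were called higher in NeuP, 2 lower and 4 not called. Col3a1, called higher, was at 24.9 and 46.1 FPKM, against 0.0290, 0.192 and 0.0360 FPKM in hairpin #2, hairpin #4 and the control. Those called lower were Col1a2 and Fn1. Fn1 was at 15.4 and 12.6 FPKM in NeuP, 133 and 138 FPKM in the hairpins and 131 FPKM in the control, most of the ESC sums. The part of these other cell types in the results below was not tested, and in bulk RNA fewer cells of a type and less RNA per cell cannot be told apart.

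NeuP differed from control ESC in the later ATPase and scaffold genes, Smarca2 and Smarcc2, whose rows rose 16.7-fold and 6.08-fold. The Smarca2 row is a short transcript that starts inside the gene, so it does not give the level of full-length BRM transcripts. No member was called lower. These 2 higher calls among 9 tested members stand beside 18.3% of all 13750 tested genes called higher and 24.9% called lower (43.2%, or 5936 genes, in both directions; limma, adjusted p under 0.05). By ranges alone, 3 tested members lay above all 3 ESC libraries in both NeuP replicates (Smarca2, Smarcc2 and Dpf3), against 31.4% of all tested genes. Another 4 (Smarca4, Smarcc1, Actl6a and Dpf2) lay below all 3 in both, against 46.4%. Thus 7 of 9 did not overlap with ESC, against 77.8%. Of these 7, Dpf3 had passed the filter through NeuP replicate 2 alone, and its NeuP replicate 1 was above hairpin #2 only within counting error. The median change of the 9 was -0.42 on the log2(FPKM + 1) scale and that of all tested genes -0.26. The summed level of the 9 was 221 and 261 FPKM in NeuP, 242 and 251 FPKM in the hairpins and 228 FPKM in the control, so the sum in NeuP spanned that of the ESC libraries.

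**Figure D1:**
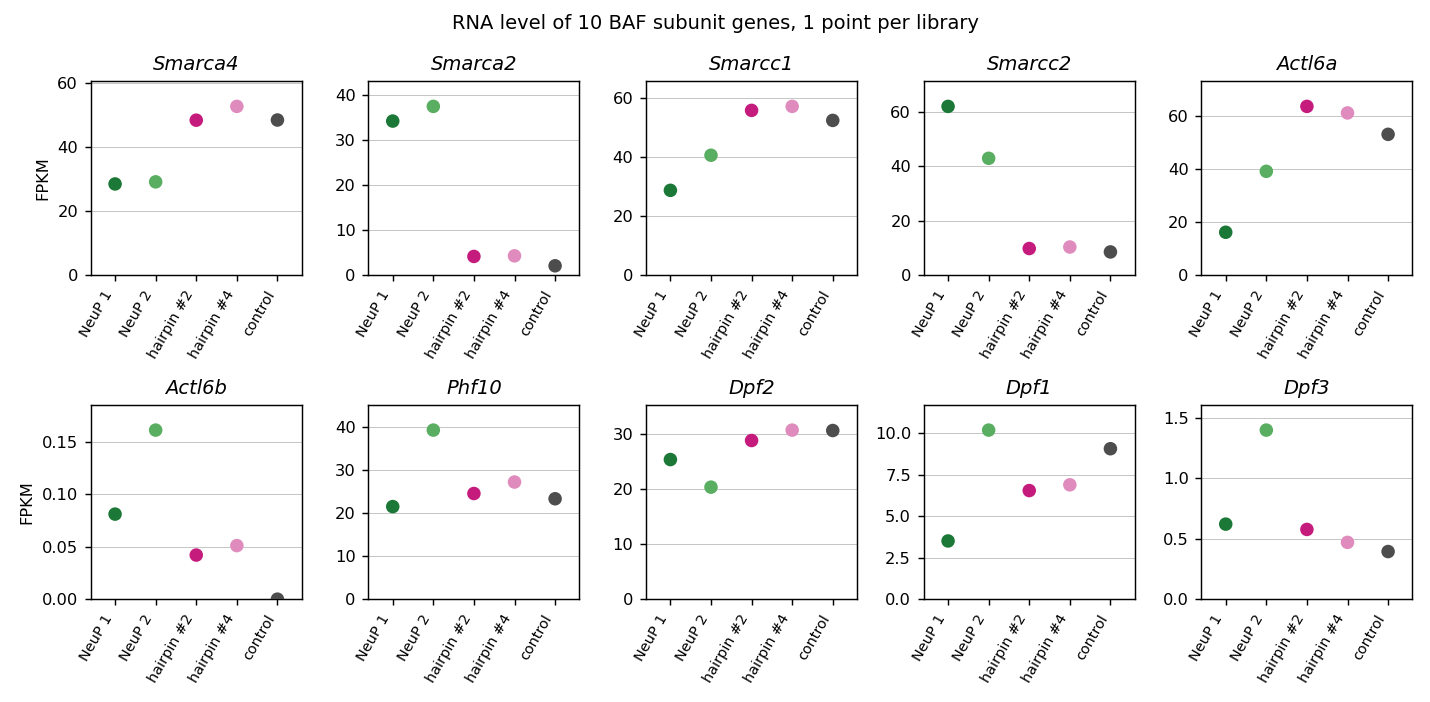
FPKM of each of the 10 BAF subunit genes in the 5 RNA libraries, 1 point per library, with a separate linear axis for each gene. Smarca2 and Smarcc2 were higher in both NeuP points than in the 3 ESC points, Smarca4, Smarcc1, Actl6a and Dpf2 were lower in both, and the NeuP points of Actl6a, Phf10, Dpf1 and Dpf3 stood well apart from each other.

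Smarca2 encodes BRM, the ATPase that stem cells hold low. It was measured at 34.2 and 37.4 FPKM in NeuP, 4.21 and 4.34 FPKM in hairpins #2 and #4, and 2.14 FPKM in the control. The NeuP replicates lay close together and far above the ESC libraries. The change from the control was 3.55 ± 0.18 (log2, SE, adjusted p = 0.00251, limma with Benjamini-Hochberg adjustment). Its place among the tested genes shifted too: 88.3% and 88.5% of them were lower than Smarca2 in the NeuP replicates, against 25.4% in the control. The row behind these values is a short transcript (NM_026003, 1951 bases, chr19:26822893-26852811, plus strand, mm9). It spans 29.9 kb, where the gene in RefSeq's GRCm38 annotation spans 173.2 kb, so its start lies inside the gene and the table does not tell its reads from those of longer transcripts that share its exons. The transcript 4931403E22Rik overlaps it on the opposite strand, and the sources used here do not give whether reads were counted by strand.

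Smarca4 encodes BRG1, the ATPase of all 3 forms (NM_001174079, chr9:21420613-21508674, plus strand, mm9). It was at 28.6 and 29.2 FPKM in NeuP, 48.5 and 52.8 FPKM in the hairpins and 48.5 FPKM in the control. Both NeuP values were below all 3 ESC values, and the replicates nearly coincided. The change from the control was -0.73 ± 0.19 (log2, SE, adjusted p = 0.0514, limma), just short of the threshold. It passed with all 3 ESC libraries as the reference (adjusted p = 0.00687), with the hairpins as the reference (0.0220) and with a pseudocount of 5 (0.0480). It did not pass without hairpin #2 (0.219), without hairpin #4 (0.218) or with quantile normalization, where the change shrank to -0.42 (0.164).

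Within each library the 2 ATPase genes can be set side by side, since FPKM is per transcript length. Smarca2 made up 54.5% and 56.2% of the summed FPKM of the pair in NeuP, 7.99% and 7.61% in the hairpins and 4.23% in the control. The Smarca2 value is that of the short transcript's row, divided by its short length, so these shares do not give the level of full-length BRM transcripts. The log2 ratio of Smarca2 to Smarca4 averaged 0.30 ± 0.07 in NeuP (SD, n = 2) and -3.52 ± 0.40 in ESC (SD, n = 3), a difference of 3.82 that gave an exact two-sided permutation p of 0.2, the smallest that 2 against 3 libraries allow.

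Smarcc2 encodes BAF170, a scaffold subunit that stem cell complexes largely lack (NM_198160, chr10:127896292-127927230, plus strand, mm9). Its promoter, shown for its density of CG pairs and for the Ring1B peak upstream of it described further on, reads as follows in RefSeq (GRCm38.p6, chr10:128458986-128459285, plus strand, 250 bases before to 50 bases after the start), with each CG pair in capitals.
Smarcc2 promoter: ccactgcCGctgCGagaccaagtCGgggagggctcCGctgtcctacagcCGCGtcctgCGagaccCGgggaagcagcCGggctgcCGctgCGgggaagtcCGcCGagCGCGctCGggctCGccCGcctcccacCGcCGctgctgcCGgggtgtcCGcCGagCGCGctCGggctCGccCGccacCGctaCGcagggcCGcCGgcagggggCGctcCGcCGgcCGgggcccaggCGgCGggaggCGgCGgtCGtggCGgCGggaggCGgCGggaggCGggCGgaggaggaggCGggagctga
It holds 48 CG pairs, a number that 1.22% of RefSeq's 32851 mouse promoter windows reach, against a median of 7.

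Smarcc2 RNA was at 62.0 and 43.0 FPKM in NeuP, 9.88 and 10.4 FPKM in the hairpins and 8.63 FPKM in the control. Both NeuP values lay above all 3 ESC values. The change from the control was 2.45 ± 0.29 (log2, SE, adjusted p = 0.00905, limma). The call was lost without hairpin #2 or without hairpin #4 (adjusted p = 0.102 in each), where the fit rests on fewer libraries.

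Smarcc1 encodes BAF155, the scaffold of the stem cell form (NM_009211, chr9:110034528-110142682, plus strand, mm9). It was at 28.7 and 40.6 FPKM in NeuP, 55.7 and 57.0 FPKM in the hairpins and 52.3 FPKM in the control. Both NeuP values were lower than any ESC value, but the NeuP replicates were also unlike each other, and the change of -0.60 ± 0.29 (log2, SE) did not pass (adjusted p = 0.169, limma). With the 3 ESC libraries as the reference it did (adjusted p = 0.0296), with the hairpins as the reference it did not (0.0721), and quantile normalization gave -0.27 (0.424). Smarcc2 made up 68.3% and 51.4% of the FPKM of the scaffold pair in NeuP, 15.1% and 15.5% in the hairpins and 14.2% in the control. The difference of the log2 ratio was 2.98, again with an exact two-sided permutation p of 0.2.

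**Figure D2:**
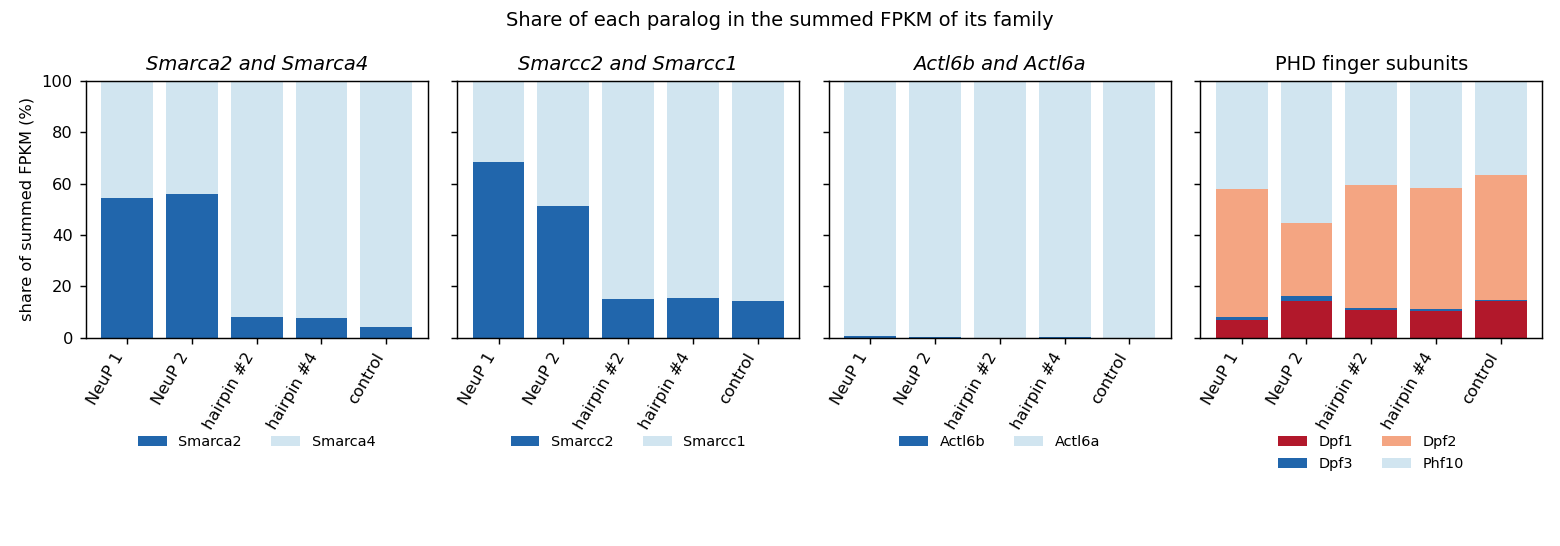
Share of each gene in the summed FPKM of its family (percent, linear axis from 0), with 1 bar per library and the 4 families in separate panels. Smarca2, measured on the row of a short transcript, made up 54.5% and 56.2% of the ATPase pair in NeuP against 4.23% in the control. Actl6b was under 1% of its pair in all 5 libraries.

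The actin-related subunits did not show such an exchange of paralogs. Actl6a encodes BAF53A, the form of stem cells and progenitors (NM_019673, chr3:32607468-32625893, plus strand, mm9), and Actl6b the neuron form BAF53B (NM_031404, chr5:137994783-138010801, plus strand, mm9). Their RefSeq promoters (GRCm38.p6, chr3:32708296-32708595 and chr5:137553296-137553595, both plus strand, same window) are shown because these paralogs differ in level more than any other pair studied here, with CG pairs in capitals.
Actl6a promoter: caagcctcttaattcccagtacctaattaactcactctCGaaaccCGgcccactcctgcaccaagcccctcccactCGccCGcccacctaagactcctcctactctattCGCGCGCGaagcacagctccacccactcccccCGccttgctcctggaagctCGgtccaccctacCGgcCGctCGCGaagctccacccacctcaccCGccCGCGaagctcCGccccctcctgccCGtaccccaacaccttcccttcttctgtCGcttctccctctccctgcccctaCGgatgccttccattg
Actl6b promoter: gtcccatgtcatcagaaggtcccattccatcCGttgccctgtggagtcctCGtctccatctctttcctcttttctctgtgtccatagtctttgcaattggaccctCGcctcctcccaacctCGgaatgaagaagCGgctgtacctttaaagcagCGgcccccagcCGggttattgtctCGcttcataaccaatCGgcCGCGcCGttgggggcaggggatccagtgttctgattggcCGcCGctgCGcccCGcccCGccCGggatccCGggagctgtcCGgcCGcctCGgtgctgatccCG
The CG pairs number 21 in Actl6a and 23 in Actl6b, so the count hardly separates them. CCAAT, searched on both strands, occurs 3 times in the Actl6b window and at 0 places in that of Actl6a, and 37.4% of RefSeq's windows hold at least 1.

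Actl6b was at 0.0810 and 0.161 FPKM in NeuP, 0.0420 and 0.0510 FPKM in the hairpins and 0 FPKM in the control. Behind these values stood 4 and 6 reads in NeuP, 2 and 2 reads in the hairpins and 0 reads in the control, where a count of 0 allows up to 0.0772 FPKM (3 reads, counting error only). The neuron form was therefore near the limit of detection in all 5 libraries. Actl6a was at 16.2 and 39.2 FPKM in NeuP, 63.6 and 61.1 FPKM in the hairpins and 53.1 FPKM in the control. It was below the ESC libraries in both NeuP replicates, which were 2.41-fold apart, and its change of -1.04 ± 0.58 (log2, SE) did not pass (adjusted p = 0.219, limma), though it did with the 3 ESC libraries as the reference (0.0336) and not with the hairpins as the reference (0.0947). Actl6b was 0.496% and 0.410% of the pair in NeuP, 0.0660% and 0.0834% in the hairpins and 0% in the control.

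The PHD finger subunits split into 2 abundant genes, Phf10 and Dpf2, and 2 low ones, Dpf1 and Dpf3. Phf10 encodes BAF45A, linked to dividing progenitors (NM_024250, chr17:15082000-15098237, minus strand, mm9), and was at 21.5 and 39.3 FPKM in NeuP, 24.6 and 27.2 FPKM in the hairpins and 23.4 FPKM in the control. The NeuP replicates lay on either side of the ESC values, and the change was 0.31 ± 0.42 (log2, SE, adjusted p = 0.578, limma). It reversed to -0.11 without NeuP replicate 2. Other transcripts of the table overlap Phf10, 1600012H06Rik on the opposite strand and LOC106740 on the same strand, so part of its reads may be shared.

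Dpf2, the broadly expressed member of the family (NM_001291078, chr19:5896516-5912871, minus strand, mm9), was at 25.4 and 20.4 FPKM in NeuP, 28.8 and 30.7 FPKM in the hairpins and 30.7 FPKM in the control. Both NeuP values were below the ESC values, by a change of -0.42 ± 0.23 (log2, SE, adjusted p = 0.218, limma), which quantile normalization brought to -0.16 (0.652). Dpf1, a neuron form (NM_013874, chr7:30089024-30102605, plus strand, mm9), was at 3.50 and 10.2 FPKM in NeuP, 6.53 and 6.88 FPKM in the hairpins and 9.05 FPKM in the control. Its NeuP replicates were 2.90-fold apart and enclosed all 3 ESC values. The change of -0.50 ± 0.61 (adjusted p = 0.532, limma) turned to 0.15 without NeuP replicate 1.

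Dpf3 is the other neuron form (NM_058212, chr12:84369998-84828686, minus strand, mm9). This row spans 458.7 kb, whereas the gene spans 274 kb in RefSeq's GRCm38 annotation, so its far end is uncertain. Its RefSeq promoter (GRCm38.p6, chr12:83487687-83487986, minus strand, same window) is shown because PRC1 peaks cover or flank it in 4 lists, with CG pairs in capitals.
Dpf3 promoter: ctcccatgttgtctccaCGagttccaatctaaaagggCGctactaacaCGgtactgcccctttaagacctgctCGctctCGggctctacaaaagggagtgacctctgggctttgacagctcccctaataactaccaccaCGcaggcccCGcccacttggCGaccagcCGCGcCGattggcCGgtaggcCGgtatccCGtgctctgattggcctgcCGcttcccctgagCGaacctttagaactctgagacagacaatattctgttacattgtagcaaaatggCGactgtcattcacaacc
It holds 17 CG pairs, the fewest of the 10 members, and 3 CCAAT motifs over both strands. Its distance to the far end of the neighbouring gene Dcaf4 is the same within 2 bases in both builds, so the start is that of the table. Dpf3 was at 0.621 and 1.40 FPKM in NeuP, 0.577 and 0.470 FPKM in the hairpins and 0.394 FPKM in the control, from 30 and 51 reads in NeuP, 27 and 18 reads in the hairpins and 15 reads in the control. NeuP replicate 1 was barely above hairpin #2, well inside their counting intervals of 0.419 to 0.887 and 0.380 to 0.839 FPKM (exact Poisson, 95%). The change was 0.50 ± 0.29 (log2, SE, adjusted p = 0.232, limma).

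Phf10, Dpf2, Dpf1 and Dpf3 made up 42.2%, 49.7%, 6.86% and 1.22% of their summed FPKM in NeuP replicate 1 and 55.2%, 28.6%, 14.3% and 1.96% in NeuP replicate 2. The same genes made up 36.8%, 48.3%, 14.3% and 0.621% in the control. The make-up of NeuP replicate 1 was nearer to that of the control than to that of NeuP replicate 2 for Dpf2. Set against Phf10, the log2 ratio in NeuP minus that in ESC was -0.46 for Dpf1, -0.60 for Dpf2 and 0.20 for Dpf3, with exact two-sided permutation p of 0.2, 0.6 and 0.4. Of these 6 ratios between paralogs, counting the ATPase, scaffold and actin-related pairs, those of Smarca2, Smarcc2, Actl6b and Dpf1 did not overlap between NeuP and ESC, and adjustment over them cannot bring any p below 0.2. Among single genes 77.8% of all tested did not overlap either, and the Actl6b ratio rests on 6 reads or fewer of Actl6b in each library. The Dpf1 ratio came very near to overlap, at -1.85 in NeuP replicate 2 and -1.84 in hairpin #4.

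The spread between the NeuP replicates limited these tests. Actl6a, Phf10 and Dpf1, 3 of the 9, were at least 1.5-fold apart on the FPKM + 1 scale between them, as were 35.9% of all tested genes. Over all genes the median SD was 0.287 log2 units between the NeuP replicates and 0.0619 between the hairpins. Without 1 NeuP replicate the spread comes from the hairpins alone, and without 1 hairpin from the NeuP pair alone. The number of calls in such fits was therefore not read as a result about the members. With the 3 ESC libraries as the reference 5 members were called (Smarca2 and Smarcc2 higher, Smarca4, Smarcc1 and Actl6a lower). There 8555 of all 13750 tested genes were called, 3341 higher and 5214 lower. Smarca2 was the one member called in every setting tried.

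**Figure D3:**
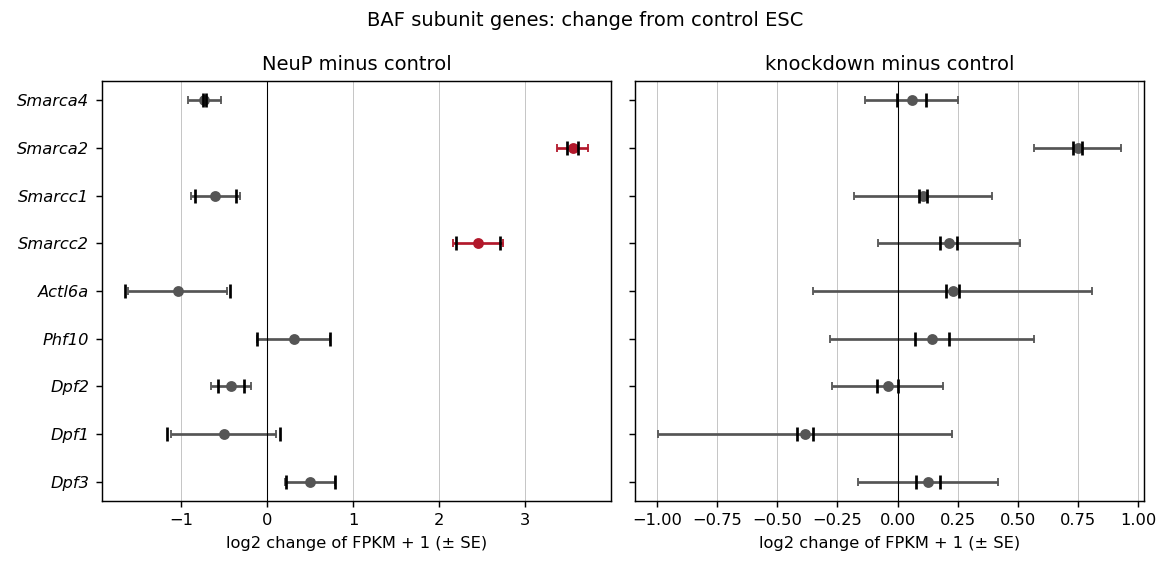
Change from the control ESC library in NeuP (left) and in the knockdown (right) for the 9 tested members, on the log2(FPKM + 1) scale, with points for the group, bars of ± 1 SE from limma and black ticks for the separate libraries; red marks an adjusted p under 0.05. Smarca2 and Smarcc2 are the red points in NeuP, and in the knockdown Smarca2 is the member farthest from 0.

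The next comparison asked whether loss of Nup153 in ESC moved the same genes. It used the same control library as the NeuP comparison. None of the 9 tested members was called in the knockdown. There limma called 0% of the 13750 tested genes, with 814 at an unadjusted p under 0.05. Voom on recovered reads called 0, with 498 at that level. Both fits took their spread from the NeuP pair too, whose median SD was 0.287 log2 units against 0.0619 for the hairpins. With the ESC libraries alone in the fit more genes reached that unadjusted level, and again none was called. The absence of calls therefore does not show that RNA was unchanged. Without a filter on low values 230 genes were called (55 higher, 175 lower), none of them a member.

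Smarca2 was the one member at an unadjusted p under 0.05. It stood at 4.21 and 4.34 FPKM in the hairpins, with counting intervals of 3.71 to 4.76 and 3.78 to 4.96 FPKM, against 2.14 FPKM in the control, with an interval of 1.75 to 2.59 FPKM (exact Poisson, 95%, counting error only). Both hairpins were thus above the control by more than counting error, from 256 and 216 reads in the hairpins and 106 reads in the control. The mean was 2.00-fold that of the control, with a change of 0.75 ± 0.18 (log2, SE, unadjusted p = 0.0163, adjusted p = 0.825, limma). With the 3 ESC libraries alone in the fit the adjusted p was 0.0822, which is still short of the threshold. No tested gene had a smaller adjusted p in that fit. Smarca2 was the only tested member at least 0.5 log2 units above the control in both hairpins, as 7.08% of all tested genes were. The level in the hairpins remained far below the 34.2 and 37.4 FPKM of NeuP.

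The other 8 tested members lay closer to the control. Smarcc2 had 9.88 and 10.4 FPKM in the hairpins against 8.63 FPKM in the control (log2 change 0.21 ± 0.29, SE), and Dpf1 had 6.53 and 6.88 FPKM against 9.05 FPKM (-0.38 ± 0.61). The changes of the rest ran between those of Dpf2 (-0.04) and Actl6a (0.23), each with an adjusted p of 1 (limma). In 6 of the 9 both hairpins were above the control and in 1 (Dpf1) both were below, against 55% and 29.5% of all tested genes, so that 7 lay on 1 side of the control, against 84.6%. The median change was 0.13 for the members and 0.08 for all tested genes. With a single control library these differences have no replicate on its side.

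The remaining BAF subunit genes were read beside the members. All 20 were tested: 8 were called higher in NeuP (background 18.3%), 1 lower (background 24.9%) and 11 not called, with a median change of 0.75. In the family of the BAF60 adaptors 2 paralogs were called in opposite directions. Smarcd3 was at 18.3 and 15.6 FPKM in NeuP, 3.36 and 3.88 FPKM in the hairpins and 3.04 FPKM in the control (log2 change 2.15 ± 0.21, SE, adjusted p = 0.00598, limma). Smarcd2 was at 9.35 and 7.86 FPKM in NeuP, 50.2 and 54.1 FPKM in the hairpins and 57.0 FPKM in the control (-2.60 ± 0.21, adjusted p = 0.00461). The groups did not overlap in either gene, while the family's other member Smarcd1 was at 38.9 and 32.5 FPKM in NeuP and 36.3 FPKM in the control (-0.03 ± 0.22).

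Bcl11a, a zinc finger protein found with BAF in the brain and in lymphocytes, had the largest increase of the 20, with ESC levels near 0: 4.24 and 5.17 FPKM in NeuP, 0.196 and 0.160 FPKM in the hairpins and 0.0540 FPKM in the control (log2 change 2.43). Smarce1, the subunit with an HMG box, was 4.57-fold higher, and Arid2, which marks the PBAF form, 3.74-fold. The small subunits Bcl7a and Bcl7b were 3.36-fold and 1.94-fold higher, the core subunit gene Smarcb1 2.18-fold and Brd9, which marks the non-canonical form, 1.78-fold. Each of these had an adjusted p under 0.05 in limma, and of the 9 calls Bcl11a alone was still made without hairpin #2 or without hairpin #4. Bcl11a had passed the filter on low values only through NeuP, the group where it is high. Smarcb1 and Bcl7b were not called with all 3 ESC libraries or with the hairpins as the reference. Their hairpin levels lay nearer to NeuP than to the control, with Bcl7b at 11.9 and 9.49 FPKM in NeuP, 8.42 and 8.17 FPKM in the hairpins and 5.51 FPKM in the control. Bcl7b was also not called with a pseudocount of 0.1 or 5, with quantile normalization, with voom or without a filter on low values. Without that filter Smarcb1 and Bcl7a were not called either. Arid1b, a paralog of the ARID subunit gene Arid1a, was 2.66-fold higher and missed the threshold (adjusted p = 0.0506, limma).

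In the knockdown 0 of these 20 were called (background 0%). At an unadjusted p under 0.05 (limma) stood 3 of the 20, against 814 of all 13750 tested genes. Arid1a, the main ARID subunit of canonical BAF, was at 24.6 and 24.5 FPKM in the hairpins against 13.1 FPKM in the control (log2 change 0.86, unadjusted p = 0.0103, limma). Smarcb1 was at 33.9 and 36.4 FPKM against 19.6 FPKM (0.81), and Arid2 at 9.29 and 9.13 FPKM against 5.72 FPKM (0.60). Gltscr1 (0.79) and Gltscr1l (0.58), paralogs of the non-canonical form, were also at least 0.5 log2 units higher in both hairpins. Among all tested genes 7.08% were that far above the control in both. In 14 of the 20 both hairpins were above the control and in 5 below, against 55% and 29.5% of all tested genes.

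**Figure D4:**
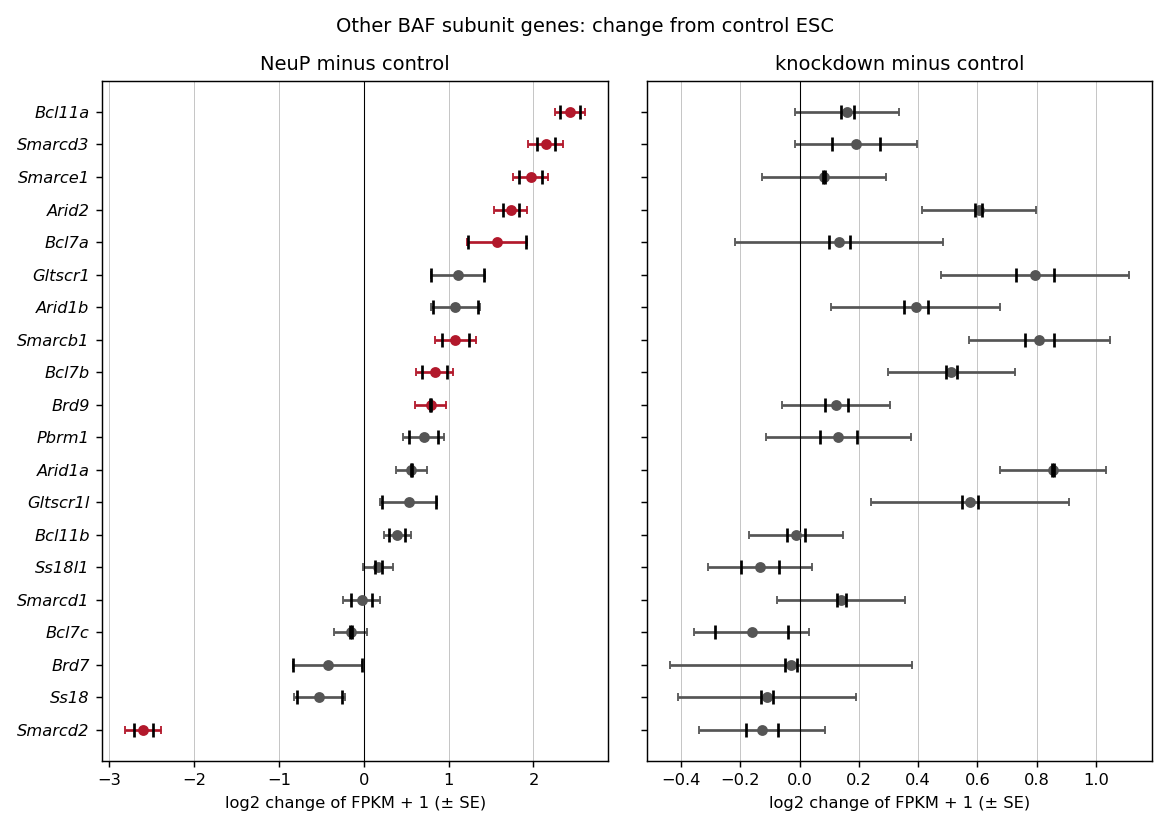
Change from the control ESC library in NeuP (left) and in the knockdown (right) for the 20 other BAF subunit genes, ordered by the NeuP change, on the log2(FPKM + 1) scale, with bars of ± 1 SE from limma, black ticks for the separate libraries and red for an adjusted p under 0.05. Bcl11a, Smarcd3 and Smarce1 are at the top and Smarcd2 at the bottom in NeuP, and no gene is red in the knockdown.

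The genes with the most similar profile to each member over the 5 libraries were found by Euclidean distance between centred log2(FPKM + 1) values. Nearest to Smarca2 was Zmiz1 (distance 0.0864 log2 units), at 35.8 and 40.1 FPKM in NeuP, 4.25 and 4.43 FPKM in the hairpins and 2.38 FPKM in the control, followed by Galnt16 and Sh3bgrl. Nearest to Smarcc2 were Ankrd13b, Ppm1e and Tmod2, and nearest to Smarca4 were Dph1, Prdm10 and Rpap3. Smarcc1 lay nearest to Drg1, Nrf1 and Slmap, Actl6a to Exosc7, Nol11 and Nup155, and Phf10 to Tmem109, Sapcd2 and Dhrs13. Dpf1 lay nearest to Fkbp1a, Tpm4 and Thbs1, Dpf2 to H2-DMa and Pdrg1, and Dpf3 to Polr3f, Fam20b and Ncs1.

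Peaks were then placed against the members' transcript starts, counting a peak that shared at least 1 base with the 2 kb on either side. Each ChIP list is 1 library and gives no peak height, so presence was recorded and no test was made between lists. Dpf3 was the one member with a Ring1B peak inside this window in all 3 ESC lists, and the one with a Cbx7 peak there. The Ring1B control list had a peak of 641 bases from 993 to 1633 bases downstream of its start, the Cbx7 control list had peaks from 598 to 2832 bases downstream and from 1296 to 796 bases upstream, and both knockdown lists had a Ring1B peak over the start itself. In hairpin #2 that peak was 3213 bases wide (469 bases upstream to 2743 downstream) and in hairpin #4 2322 bases (194 upstream to 2127 downstream). In the Ring1B NeuP list the nearest peak was 25.1 kb from the start, and Dpf3 RNA stayed at 1.40 FPKM or less in all 5 libraries.

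The Dpf3 peak was widest in the deepest of the 3 ESC libraries and narrowest in the shallowest. The Ring1B libraries held 33.2 M tags in NeuP, 30.8 and 9.95 M in hairpins #2 and #4 and 4.99 M in the control. The part of depth or of the Nup153 level in the peak's presence or width was not tested. In the Ring1B lists, 1 of the 10 members had a peak in NeuP (10.4% of all genes), 3 in hairpin #2 (24%), 1 in hairpin #4 (9.24%) and 1 in the control (8.1%), and in the Cbx7 list 1 had a peak (13.2%).

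In the hairpin #2 list, the deepest of the 3 from ESC, Ring1B peaks also lay from 774 to 274 bases upstream of Smarcc2 and at Dpf1, from 2057 to 1557 bases upstream and from 1257 to 1757 downstream. None of these 3 peaks had a counterpart within 2 kb in the hairpin #4 or control list, and the control list held a Ring1B peak farther off, from 4214 to 3714 bases upstream of Smarcc2. RNA of Smarcc2 in hairpin #2 was 9.88 FPKM against 8.63 FPKM in the control, and that of Dpf1 6.53 FPKM against 9.05 FPKM. A Ring1B peak stood just outside the window of Actl6a in all 3 ESC lists, with its near edge 2.26 kb upstream in hairpin #2, 2.19 kb in hairpin #4 and 2.30 kb in the control, at a gene expressed at 53.1 FPKM or more in ESC.

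In the Ring1B NeuP list the one member with a peak was Smarca2, the member that rose most. The peak of 629 bases ran from 242 bases upstream to 386 downstream of the start of the short transcript. That start lies inside the gene, and the starts of the longer transcripts were not examined. The NeuP list was called against the IgG library of ESC, per the file headers.

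No member had an Oct4 ChIP peak (0.712% of all genes in hairpin #2 and 0.733% in the control), a Nup153 DamID peak (5.91%) or an Oct4 DamID peak (2.8%) within 2 kb. At these background shares 0 of 10 is close to the general level. The nearest Nup153 DamID peak to any member's start was 8.94 kb from Dpf1, upstream of it. Smarca2, the member farthest from the control in the knockdown, had its nearest Nup153 DamID peak 1510 kb away.

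**Figure D5:**
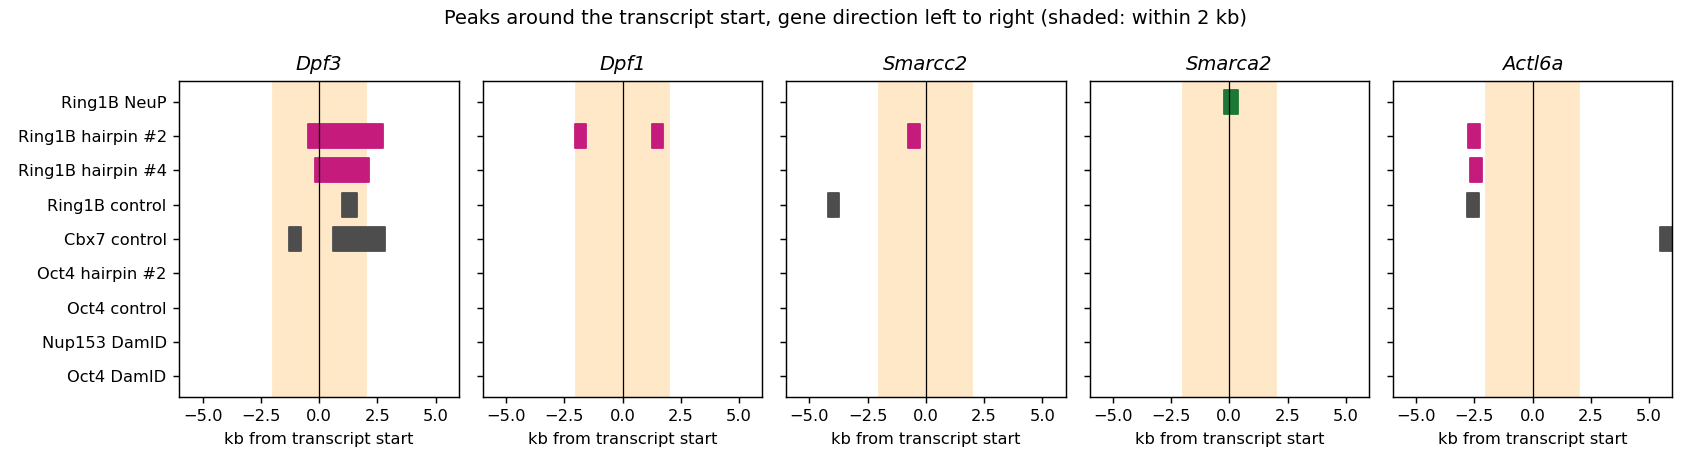
Position of peaks around the transcript starts of the 5 members with a peak within 3 kb in any list (kb from the start, gene direction left to right), with 1 row per list and the 2 kb window shaded; the Actl6a peaks lie just outside it. The rows of Dpf3 hold Ring1B in both hairpins and the control and Cbx7 in the control, whereas the NeuP row is empty there and filled at Smarca2.

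Among the RefSeq promoter windows all 10 members had more CG pairs than the median of 7, between 17 (Dpf3) and 62 (Phf10). CCAAT occurred in 4 of the 10, in Actl6b and Dpf3 3 times each, in Dpf1 2 times and in Dpf2 once, which is close to the 37.4% of all windows that hold at least 1. These matches describe letters in the window and nothing more.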

How the data were processed

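RNA values were deposited by the authors as FPKM, which corrects fragment numbers for the length of the transcript and the size of the library, with 1 row per gene. Per the submitters' processing notes the tools were CASAVA 1.8.2, STAR 2.2.0c, Bowtie2 2.1.0, HOMER 4.6 and edgeR, on mm9; per the labels' protocols, libraries were strand-specific and from polyadenylated RNA. Peak lists hold positions with no height, from HOMER findPeaks against an ESC IgG library per the ChIP file headers, and each DamID list stands for 2 replicates. Steps between low values recovered whole reads per gene (100% of the low values within 0.1 read) and so each library's depth.

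Changes came from limma-trend on log2(FPKM + 1) in limma 3.58.1 (R 4.3.3), which understates changes of low genes. All 5 libraries entered 1 fit with 3 groups, on the 13750 genes that reached an FPKM of 1 in any library, two-sided, with Benjamini-Hochberg adjustment and calls at 0.05. Residual degrees of freedom numbered 2, and limma's prior 1.74; the lone control is taken to vary as the hairpins and NeuP do. The labels do not say whether libraries came from separate cultures, so p-values measure the spread between these samples. Voom on recovered reads called 5912 genes in NeuP and 0 in the knockdown. Peak distances, ratios and promoter counts used scipy 1.17.1, pandas 2.3.3 and numpy 2.4.6 in Python 3.11.15, with figures from matplotlib 3.10.9.

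The members, lists and tests were chosen with earlier results of these data known. Named were all members, other BAF genes called in NeuP or with both hairpins at least 0.5 log2 units from the control, Rest and the 3 largest changes each way in the other lists, leading markers, and the 3 genes most like each member. Gfap, Hells, Rbfox3, Neurod2, Stmn2, Nefl, Col3a1, Mog, Mag, Smarcd1 and Arid1b, and in the other lists Hltf, Chd5 and Shprh, were added after their values were seen. Some genes that this rule names are not reported here. Alternatives were pseudocounts of 0.1 and 5, no filter, quantile normalization, voom, other reference groups, leaving out libraries, and windows of 1 and 5 kb.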

Additional observations from a re-analysis of the deposited data

How the results depend on the processing

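Leaving out 1 library moved the number of members called in NeuP between 1 and 8, of other BAF genes between 1 and 17 and of all genes between 1822 and 11245; without a hairpin the fit has fewer libraries, and without a NeuP replicate the spread comes from the hairpins alone. With all 3 ESC libraries as the reference 5 members were called, and 8555 of all 13750 tested genes. Leaving out libraries also reversed changes that had not been called: in NeuP, Phf10 ranged from -0.11 (without NeuP replicate 2) to 0.73 and Dpf1 from -1.16 to 0.15 (without NeuP replicate 1), and in the knockdown, Smarca4 from -0.0015 (without hairpin #4) to 0.12 and Dpf2 from -0.085 to 0.0035 (without hairpin #2). Of 99 NeuP member values under alternatives 79 kept direction and side of the threshold, 16 newly passed, 2 fell short (Smarcc2) and 2 reversed; of 90 in the knockdown 88 kept both. Without a filter 230 genes were called in the knockdown. Quantile normalization moved the median NeuP change of all genes to -0.07, against -0.26, and the calls to 2867 higher and 2974 lower, against 2516 and 3420; Smarca2 and Smarcc2 stayed the members called. The ratio differences ran, without 1 library, between 2.48 and 3.48 for Smarcc2, 0.75 and 1.87 for Actl6b, and -1.17 and -0.029 for Dpf2; a pseudocount of 5 gave 2.96 for Smarca2 and -0.062 for Dpf3 (reversed), and one of 0.1 gave 1.98 for Actl6b and 0.64 for Dpf3, and the cause was not tested. A window of 5 kb gave 4 members in the Ring1B hairpin #2 list (27.84% of all genes) and 2 in the Ring1B hairpin #4 list (13.17%). It gave 3 in the Ring1B control list (12.25%) and 2 in the Cbx7 list (16.2%). The peak lists give no score, so no stricter threshold was run. No paired analysis was possible because the groups compared share fewer than 2 replicate numbers. The hairpin libraries as the reference were chosen after seeing the data. Depth limits Actl6b, with 6 reads or fewer in each library, and Dpf3, with 51 or fewer.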

Other observations

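Beyond BAF, 24 genes for other remodeller ATPases were tested, of which 3 were called higher in NeuP (Chd7, Atrx and Shprh), 2 lower (Hltf and Chd5) and 19 not called, where 18.3% of all tested genes were called higher and 24.9% lower (limma, Benjamini-Hochberg). Chd7, a CHD family remodeller mutated in CHARGE syndrome, was at 43.7 and 19.7 FPKM in NeuP, 6.35 and 5.99 FPKM in the hairpins and 3.89 FPKM in the control (log2 change 2.64). Atrx, which works at heterochromatin, was at 39.3 and 47.2 FPKM in NeuP, 22.9 and 23.8 FPKM in the hairpins and 15.8 FPKM in the control (1.39). The other genes among the 3 largest changes in each direction were not called, and their NeuP replicates were far apart: Hells at 0.945 and 26.6 FPKM, Rad54l at 0.868 and 10.3 FPKM, Ercc6l at 0.378 and 8.88 FPKM and Chd3 at 29.0 and 7.35 FPKM in NeuP replicates 1 and 2, against 105.2, 17.6, 9.29 and 7.29 FPKM for these genes in the control.

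Rest encodes the repressor that keeps neuron genes silent outside neurons. It was at 7.69 and 6.35 FPKM in NeuP, 27.8 and 27.2 FPKM in the hairpins and 23.5 FPKM in the control (log2 change -1.62, adjusted p = 0.0103, limma). Among the genes for its corepressors, Sin3b was called lower (-1.29) and Rcor3 higher (0.99), whereas Rcor1 (-1.01) and Rcor2 (0.77) were not called. In the knockdown 0 of the 24 remodeller genes were called, as were 0 of all tested genes. Of the 24, 1 (Rad54l2, 0.50) had an unadjusted p under 0.05 in limma, against 814 of all 13750 tested genes.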
